A study of Mus musculus with 2 samples.

Results

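Solute carriers are the large superfamily of membrane proteins that move amino acids, sugars, nucleosides, metals, vitamins and ions across the membranes of cells and organelles. The genes described here have a symbol that begins with Slc and a family number, and reached 1 FPKM (fragments per kilobase of transcript and per 1000000 fragments) in at least 1 of 2 RNA sequencing libraries of sorted splenic regulatory T (Treg) cells of the mouse. There were 204 such genes, among 13717 genes of any kind at that level. Slc40a1, Slc48a1 and Slc11a1 were left out by the rule that chose the members.

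Mice of both groups were 6 to 8 weeks old and were of the strain B6.129(Cg) with the reporter allele Foxp3tm3(DTR/GFP)Ayr/J, so the healthy animals carried it too. The allele expresses a diphtheria toxin receptor and a green fluorescent protein from the Foxp3 locus, and splenic cells positive for CD4 and for FOXP3-GFP were sorted. The acute myeloid leukemia group had been given 800000 leukemia cells with no irradiation, was sorted on day 18 and had a survival of 30 to 40 days, and the controls were given phosphate-buffered saline. Each group holds 1 library, with 8929601 estimated reads in healthy and 8897162 in leukemia, so nothing below has a replicate check and no test was possible. The labels used here do not say whether a library pooled several animals.

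Families of solute carriers are numbered by sequence, and a family usually shares a class of substrate. In T cells these proteins supply the amino acids, glucose and nucleosides needed for growth, and the mitochondrial Slc25 family links the cytosol to respiration. Some work only as complexes, such as the Slc7 light chains that the heavy chain Slc3a2 (CD98) holds at the cell surface.

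Of 381 solute carrier symbols in the RefSeq gene table, after the 3 omissions, 50 were listed in neither library, 127 were listed but stayed under 1 FPKM in both, and 204 were members. Among the members, 191 reached 1 FPKM in both libraries, 5 in the healthy library alone and 8 in the leukemia library alone. The last 13 are members only through the library in which they were higher, so counts of differences over the members are a description and support nothing. Just inside the limit lay Slc7a10 (0.76 and 1.03 FPKM in healthy and leukemia), Slc29a2 (1.01 and 1.08), Slc22a2 (1.10 and 0.68) and Slc9b2 (1.19 and 0.80). Just outside it lay Slc17a8 (0.76 and 0.97), Slc3a1 (0.97 and 0.97), Slc9a2 (0.76 and 0.96) and Slc1a7 (0.85 and 0.89). Of the members, 7 are named after a carrier without being one, and the other 197 belong to 45 families in 10 substrate groups.

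Carrier transcripts were a small part of both libraries. Their FPKM summed to 2596 in healthy and 2879.5 in leukemia, or 0.482% and 0.507% of all FPKM. The 10 most abundant carriers made up 36.8% and 39.8% of these sums. By mean FPKM the order began with the adenine nucleotide exchanger Slc25a5, the mitochondrial phosphate carrier Slc25a3, the choline-like carrier Slc44a2, the glutamine carrier Slc1a5 and the adenine nucleotide exchanger Slc25a4. Slc50a1, Slc39a7, Slc7a11, Slc3a2 and Slc28a2 came next.

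Below, a pair of FPKM values gives healthy first and leukemia second. A log2 ratio is log2((FPKM leukemia + 1) / (FPKM healthy + 1)), which understates differences between low values. A gene counts as at least 2-fold higher where its log2 ratio reached 1, and as at least 2-fold lower where it reached -1, which sorts genes by size without testing them. The read ratio, leukemia over healthy with each count divided by its library total, is followed by an exact 95% interval that covers counting error only. Where brackets after FPKM values hold a number and a range with no other name, these are the read ratio and that interval. By size, 8 of 204 members (3.92%) were at least 2-fold higher in leukemia and 1 (0.490%) was lower, where the shares over all 13717 genes were 6.55% and 1.95%. The whole interval lay above 1 for 55 members (27.0%) and below 1 for 47 (23.0%), where the shares over all genes were 29.0% and 23.5%. The median log2 ratio was 0.02 over the members and 0.02 over all genes. The members were selected on their FPKM in these same libraries, so nothing is read from these shares. These shares over all genes also apply to each count per substrate group, family or list of pathway or transporter genes below. They are not repeated beside every count, and nothing is read from those counts either.

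**Figure D1:**
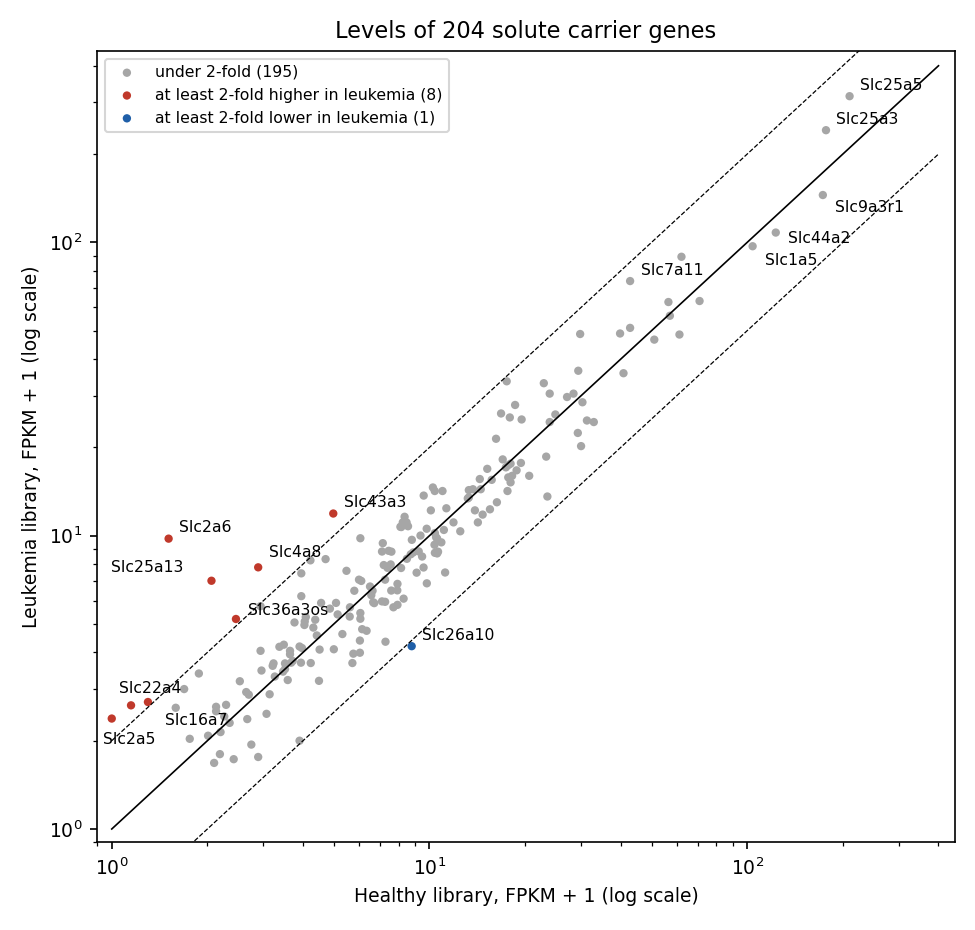
Level of each of the 204 members in the healthy (x axis) and leukemia (y axis) library, as FPKM + 1 on log axes, 1 point per gene, with a line of equal levels and dashed lines at 2-fold. The 8 higher genes and the 1 lower gene lie at 10.9 FPKM or less in both libraries, and the most abundant carriers lie between the dashed lines.

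Markers of other cells differed between the libraries, and their part in the results below was not tested. Of 15 myeloid progenitor and leukemia markers that passed 1 FPKM, 14 were at least 2-fold higher, and the list of 16 summed to 26.6 FPKM in healthy and 1318 in leukemia, with Cebpe and Ms4a3 at 0 healthy reads. Of 12 monocyte markers 6 were higher, with 7 intervals above 1 and 3 below (sums of 322 and 1032 FPKM). Ly6c2 alone gave 23.7 and 437 FPKM of these sums, and the 3 below were Csf1r, Fcgr1 and Fcgr4. Of 13 red pulp macrophage markers 4 were lower (966 and 487 FPKM). Of 11 basophil, mast cell and eosinophil markers 5 were higher and 1 lower (29.4 and 61.8 FPKM). Cpa3 and Gata2 are in that list and in the progenitor list. The markers of the sort were present in both libraries, with Foxp3 at 104 and 62.7 FPKM and Cd4 at 267 and 184 FPKM, and all 19 T cell and Treg markers had intervals below 1, none at 2-fold (sums of 4459.9 and 3193 FPKM). In bulk RNA, more cells of a type and more RNA per cell cannot be told apart. Erythroid markers summed to 182 and 175 FPKM, mature neutrophil markers to 19.2 and 23.8, and immediate early genes, which handling can induce, to 2452 and 1211.

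The scale matters for every lower value given below. The median log2 ratio of the T cell and Treg markers was -0.51, so centring on them adds 0.51 to each log2 ratio. On the deposited scale 107 members lay above 0 and 96 below, and with this centring 193 lay above and 11 below. The 11 were Slc26a10, Slc16a9, Slc28a2b, Slc12a2, Slc1a3, Slc45a3, Slc25a42, Slc35d1, Slc12a7, Slc25a27 and Slc4a7. Centring gave 28 members at least 2-fold higher and 0 lower. Every other member given as lower in what follows is lower only on the deposited scale and on scalings near it.

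The members past 2-fold came from several substrate groups. Of the 8 higher ones, Slc2a6, Slc2a5, Slc22a4 and Slc16a7 were under 1 FPKM in healthy and became members through the leukemia library. Among the 191 members at 1 FPKM or more in both libraries, 4 were at least 2-fold higher and 1 lower. Slc2a6 (NCBI Gene 227659), a hexose carrier of lysosomal membranes, had the highest log2 ratio of all. It stood at 0.51 and 8.77 FPKM, on 9 and 161 reads, a log2 ratio of 2.69 and a read ratio of 18 (9.23 to 40.0). Slc25a13 (NCBI Gene 50799) is citrin, the aspartate-glutamate carrier of the malate-aspartate shuttle. It stood at 1.06 and 6.02 FPKM, on 30 and 168 reads, a log2 ratio of 1.77 and a read ratio of 5.62 (3.79 to 8.59). Both genes were low in the healthy library and moderate in the leukemia library.

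Slc4a8, a sodium-driven chloride-bicarbonate exchanger that raises cell pH, was at 1.89 and 6.8 FPKM on 203 and 719 reads, a log2 ratio of 1.43 and a read ratio of 3.55 (3.04 to 4.17). Slc43a3, a purine nucleobase carrier, was at 3.98 and 10.9 FPKM on 89 and 248 reads, a log2 ratio of 1.26 and a read ratio of 2.80 (2.19 to 3.60). These 2 had the most healthy reads of the 8 higher genes, and Slc4a8 had the narrowest interval among them.

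The fructose carrier Slc2a5 was not listed in healthy. In leukemia it had 1.38 FPKM from 28 reads, which is at least 9.37-fold higher when the missing value is taken as 3 reads, and the exact interval begins at 7.13. Slc22a4, the ergothioneine carrier, had 0.15 and 1.64 FPKM on 3 and 31.8 estimated reads, a log2 ratio of 1.20 and a read ratio of 10.7 with a wide interval of 3.35 to 54.6. The carnitine carrier Slc22a5, its close paralogue, lay on the other side of 1, at 14.5 and 11.3 FPKM and a read ratio of 0.776 (0.662 to 0.909).

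The other 2 higher genes rest on less. Slc16a7, the monocarboxylate carrier MCT2, had 0.30 and 1.71 FPKM and a log2 ratio of 1.06, from 30.5 and 66.6 reads, a read ratio of 2.17 (1.40 to 3.44). Its listed transcript length was 11067 bases in healthy and 4332 in leukemia, a ratio of 0.391, and no other member's listed length ratio lay outside 0.8 to 1.25. On read counts scaled by the trimmed mean of M values (TMM) its log2 ratio was 0.92, which ended the call. Slc36a3os, a non-coding transcript named as antisense to Slc36a3, had 8 and 23 reads, a read ratio of 2.89 (1.25 to 7.46) and, with TMM, a log2 ratio of 0.91. No source used here states whether counting used strand, so its reads cannot be told apart from those of Slc36a3, which had 3 and 4.

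Slc26a10, of the anion exchanger family, was the 1 member at least 2-fold lower. It stood at 7.79 and 3.20 FPKM on 159 and 67 reads, a log2 ratio of -1.07 and a read ratio of 0.423 (0.313 to 0.566). Centred on T cell markers its log2 ratio was -0.56, which ended the call. Slc16a9, a monocarboxylate family member named after its value was seen, lay just short of 2-fold at 2.90 and 1.00 FPKM and a log2 ratio of -0.96, with the lowest read ratio of all members, 0.324 (0.207 to 0.493). It passed 2-fold on TMM-scaled counts (-1.40), after rescaling to 1000000 per library (TPM, -1.21) and with a pseudocount of 0.1 FPKM (-1.45). With median ratio scaling (-0.97) and centred on T cell markers (-0.46) it did not.

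Promoters are shown for the members with the highest and the lowest log2 ratio, and for the 2 members past 2-fold whose windows hold a searched motif. They come from RefSeq (GRCm38.p6) and run from 250 bases before to 50 bases after the gene's start. Of the 204 members 158 had a window, and of the 9 past 2-fold 7 had one, Slc43a3 and Slc16a7 being without. Capitals mark a match, on either strand, to the E-box CACGTG, the AP-1 site TGANTCA, a PU.1-type purine box GAGGAAGT or a C/EBP-ATF response element TGATGNAAT.
Slc2a6 promoter, chr2:27027949-27028248, minus strand: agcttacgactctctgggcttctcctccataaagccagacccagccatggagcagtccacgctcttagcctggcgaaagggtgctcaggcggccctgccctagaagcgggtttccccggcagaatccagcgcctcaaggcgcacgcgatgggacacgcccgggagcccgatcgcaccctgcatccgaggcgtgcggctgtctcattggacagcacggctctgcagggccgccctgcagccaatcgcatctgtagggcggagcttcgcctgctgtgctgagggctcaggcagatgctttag
Slc25a13 promoter, chr6:6217124-6217423, minus strand: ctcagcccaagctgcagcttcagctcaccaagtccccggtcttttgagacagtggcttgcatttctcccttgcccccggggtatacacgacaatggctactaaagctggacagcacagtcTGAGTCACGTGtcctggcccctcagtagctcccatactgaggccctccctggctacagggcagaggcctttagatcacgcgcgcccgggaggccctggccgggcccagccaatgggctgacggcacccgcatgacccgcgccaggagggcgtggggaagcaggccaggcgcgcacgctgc
Slc22a4 promoter, chr11:54028055-54028354, minus strand: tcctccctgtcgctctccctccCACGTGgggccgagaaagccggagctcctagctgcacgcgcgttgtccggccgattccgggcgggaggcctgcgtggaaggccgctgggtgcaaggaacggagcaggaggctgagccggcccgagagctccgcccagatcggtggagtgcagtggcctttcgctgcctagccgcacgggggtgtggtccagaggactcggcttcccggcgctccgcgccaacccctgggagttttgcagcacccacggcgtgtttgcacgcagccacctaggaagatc
Slc26a10 promoter, chr10:127180533-127180832, minus strand: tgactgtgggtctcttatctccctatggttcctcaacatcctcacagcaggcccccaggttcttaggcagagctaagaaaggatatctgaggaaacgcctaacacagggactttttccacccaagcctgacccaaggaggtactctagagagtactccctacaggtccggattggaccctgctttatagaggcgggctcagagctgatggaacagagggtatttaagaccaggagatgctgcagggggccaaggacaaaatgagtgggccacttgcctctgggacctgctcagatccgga

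In the Slc25a13 window the AP-1 match begins at base 121 and the E-box at base 126, so they overlap, and in the Slc22a4 window the E-box begins at base 23. The other 5 windows of members past 2-fold held none of the 4 motifs. Of all 32851 windows in the table, 7.15% held the E-box, 7.81% the AP-1 site, 3.20% the purine box and 0.965% the response element. Of 206 windows of members, 29 (14.1%) held the E-box, 12 (5.83%) the AP-1 site, 6 (2.91%) the purine box and 0 the response element. A gene can have several windows, and the windows of the whole table were not limited to genes at 1 FPKM or more. So these shares come from unlike sets, and nothing is read from their difference. The 27 members with an E-box included Slc16a1, Slc20a1, Slc25a1 and Slc29a1. A match says only that the letters are there.

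Sugar carriers numbered 15, with a median log2 ratio of -0.17 (0.34 when centred on T cell markers). Slc2a6 and Slc2a5 were the 2 at least 2-fold higher, none was lower, and 5 intervals lay above 1 against 7 below. Slc2a1 (GLUT1), the glucose carrier that T cells use when activated, was at 13.4 and 14.6 FPKM on 310 and 333 reads, and its interval (0.921 to 1.26) held 1. Slc2a3 (GLUT3), a high-affinity glucose carrier, was at 19.6 and 15 FPKM, a read ratio of 0.772 (0.689 to 0.865). Slc2a3 was the higher of these in healthy, and in leukemia they were close.

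The most abundant sugar carrier was Slc50a1, an efflux carrier, at 69.8 and 62.1 FPKM (0.883, 0.786 to 0.992). Slc37a1, of the sugar phosphate exchangers, was at 13.7 and 10.8 FPKM (0.798, 0.686 to 0.927). Its relative Slc37a4 carries glucose-6-phosphate into the endoplasmic reticulum and was at 7.15 and 9.70 FPKM (1.37, 1.10 to 1.70). The inositol carrier Slc5a3 (0.534, 0.410 to 0.691) and Slc45a3 (0.571, 0.427 to 0.760) had the lowest read ratios of the group. Slc5a3, at 1.75 and 0.94 FPKM, became a member through the healthy library, in which it was higher. Slc37a4, Slc5a3 and Slc45a3 are named after their values were seen.

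**Figure D2:**
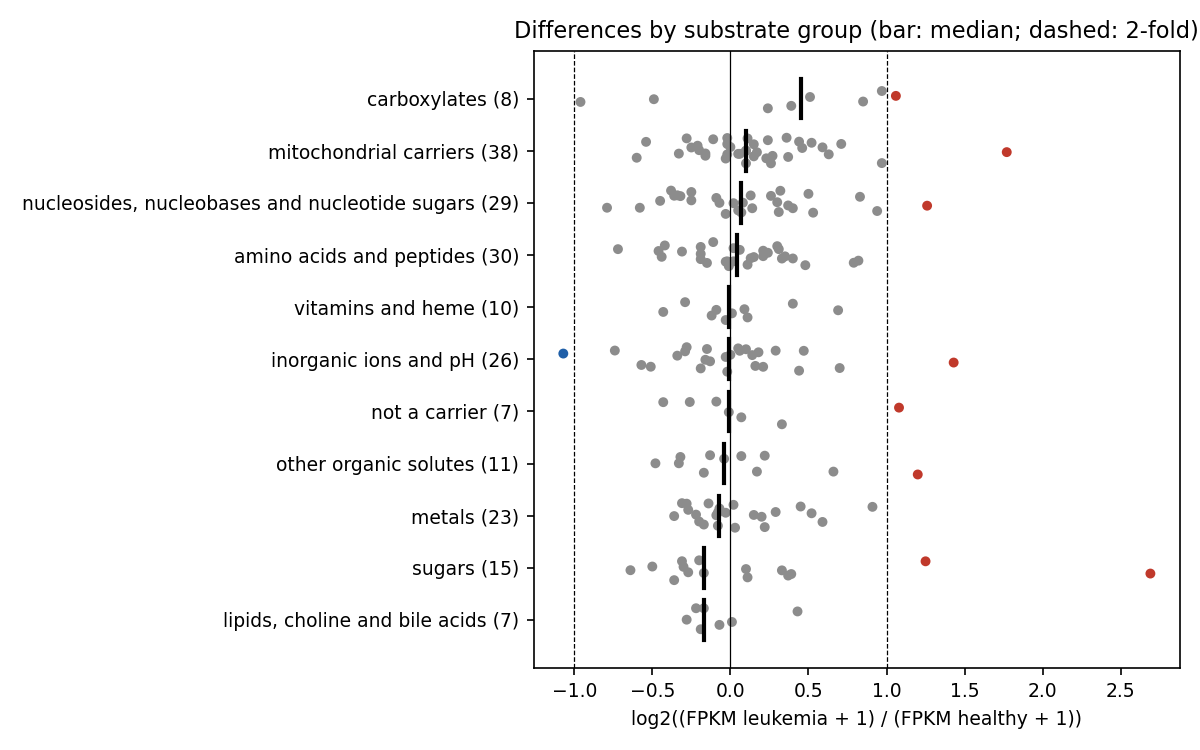
The log2 ratio of each of the 204 members (x axis) by substrate group (y axis, with the number of members), with a black bar at each group's median and dashed lines at 2-fold. Group medians run from -0.17 to 0.45, and in each group members lie on both sides of 0.

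Carboxylate carriers had the highest median log2 ratio of the groups, 0.45 over 8 members, which became 0.22 with no filter on low values. All 7 of the Slc16 members in the group had intervals that left out 1, with 5 above and 2 below. The shares over all genes were 29.0% above and 23.5% below, and nothing is read from so few members. Slc16a3 (MCT4), which exports lactate from glycolytic cells, was at 3.22 and 7.24 FPKM on 72 and 154 reads, a log2 ratio of 0.97 and a read ratio of 2.15 (1.61 to 2.88). Slc16a1 (MCT1), which moves lactate and pyruvate either way, was at 7.47 and 10.1 FPKM (1.36, 1.16 to 1.58). The most abundant was Slc16a6, at 9.25 and 13.6 FPKM (1.5, 1.30 to 1.72), while Slc16a5 was at 3.49 and 2.2 FPKM (0.632, 0.444 to 0.892). MCT1 and MCT4 reach the surface with the chaperone basigin, and Bsg was at 115 and 155 FPKM (1.35, 1.26 to 1.45). Its relative Emb, another monocarboxylate carrier chaperone, was at 64 and 119 FPKM (1.87, 1.75 to 1.99).

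Amino acid and peptide carriers numbered 30, none at 2-fold, with a median log2 ratio of 0.04 and 9 intervals above 1 against 8 below. The most abundant was Slc1a5 (ASCT2), a main route of glutamine into activated T cells, at 103 and 96 FPKM on 1972 and 1823 reads (0.928, 0.870 to 0.989). Sodium-coupled neutral carriers of the Slc38 family lay on both sides of 1. Slc38a2 (SNAT2) was at 39.8 and 34.8 FPKM (0.875, 0.815 to 0.939), Slc38a1 (SNAT1) at 18.5 and 23.9 FPKM (1.28, 1.19 to 1.38) and Slc38a10 at 38.8 and 47.9 FPKM (1.23, 1.14 to 1.32).

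Slc3a2 (CD98), the heavy chain, stood at 56.1 and 55.2 FPKM on 1302 and 1277 reads, and its interval (0.911 to 1.06) held 1. Of its 6 light chains among the members, 2 had intervals above 1, 1 had its interval below 1 and 3 had intervals that held 1. Slc7a11 (xCT), which imports cystine in exchange for glutamate and so feeds glutathione synthesis, was at 41.8 and 72.8 FPKM on 2988 and 5030 reads, a log2 ratio of 0.79 and a read ratio of 1.69 (1.61 to 1.77). Slc7a5 (LAT1), which imports leucine and other large neutral amino acids, was at 7.35 and 10.6 FPKM (1.44, 1.22 to 1.71). Slc7a11 was the most abundant light chain in both libraries.

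Slc7a6 (y+LAT2), which exchanges cationic for neutral amino acids, was at 10.3 and 11.4 FPKM with an interval that held 1 (0.953 to 1.28). Slc7a7 (y+LAT1) was at 5.34 and 3.74 FPKM (0.669, 0.468 to 0.949) and Slc7a8 (LAT2) at 2.46 and 2.44 FPKM with an interval that held 1, both named after their values were seen. Summed over the 6 light chains among the members, reads were 3737 and 5897, a ratio of 1.58 (1.52 to 1.65), and Slc7a11 held most of both sums. Slc7a1 (CAT1), an arginine carrier that needs no heavy chain, was at 7.10 and 9.72 FPKM (1.36, 1.20 to 1.54).

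**Figure D3:**
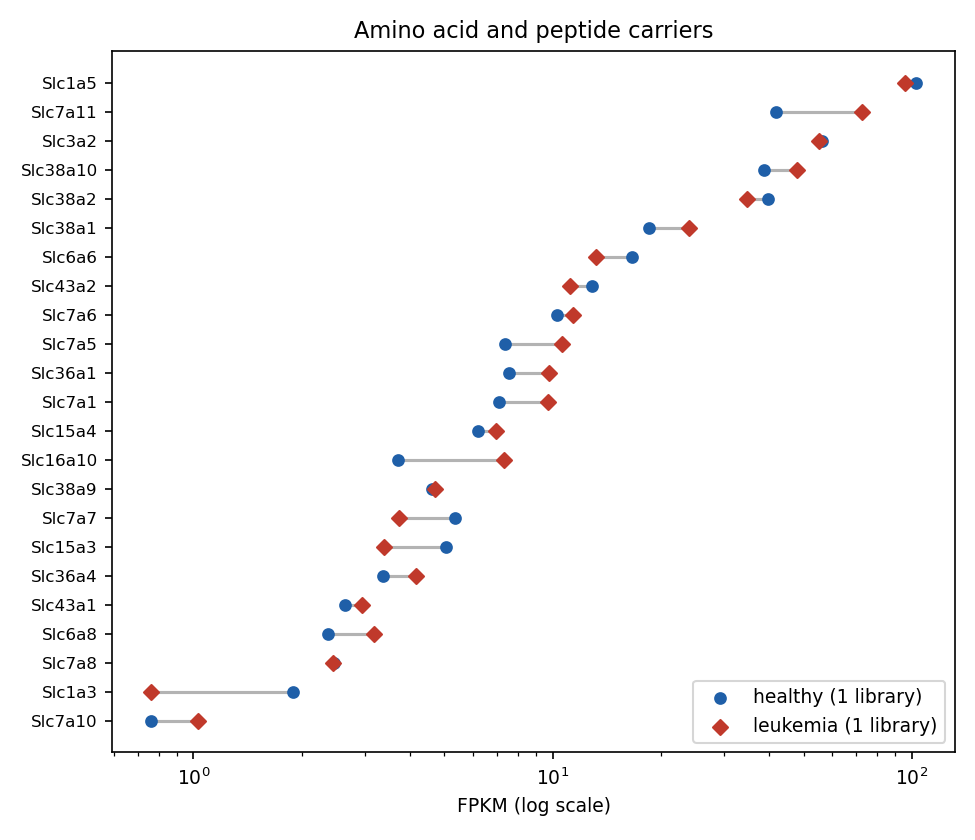
FPKM (x axis, log scale) of the 23 amino acid and peptide carriers named in the text, of 30 (y axis, ordered by level), in the healthy and leukemia library, 1 symbol each. Slc1a5 and Slc3a2 nearly coincide between libraries, while Slc7a11 lies at 41.8 and 72.8 FPKM.

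Among the other amino acid carriers, Slc6a6, the taurine carrier, was at 16.6 and 13.2 FPKM (0.794, 0.718 to 0.877) and the creatine carrier Slc6a8 at 2.37 and 3.18 FPKM (1.35, 1.01 to 1.80). Slc43a2 (LAT4) was at 12.9 and 11.2 FPKM (0.858, 0.779 to 0.946) and Slc43a1 (LAT3) at 2.64 and 2.94 FPKM, with an interval that held 1. The extremes of the group, named after their values were seen, were the aromatic amino acid carrier Slc16a10 at 3.71 and 7.32 FPKM (log2 ratio 0.82) and the glutamate carrier Slc1a3 at 1.89 and 0.76 FPKM (log2 ratio -0.72). Slc1a3 became a member through the healthy library, in which it was higher. Slc1a4, which carries alanine, serine and cysteine, had 11 and 17 reads and was no member.

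At the lysosome, amino acid carriers feed the signal that recruits the growth kinase complex mTORC1. Slc38a9, which senses arginine there, was at 4.62 and 4.70 FPKM with an interval that held 1 (0.816 to 1.13). The proton-coupled Slc36a1 was at 7.56 and 9.77 FPKM (1.29, 1.12 to 1.49) and Slc36a4 at 3.37 and 4.17 FPKM (1.28, 1.02 to 1.60). Slc15a3 and Slc15a4 carry histidine and peptides out of endolysosomes, and the latter supports Toll-like receptor signalling. Slc15a3 was at 5.04 and 3.39 FPKM (0.672, 0.491 to 0.917), while Slc15a4 was at 6.18 and 6.94 FPKM with an interval that held 1. Of 29 genes of amino acid sensing upstream of mTORC1, none was at 2-fold, and the median log2 ratio was 0.05. Intervals lay above 1 for 8 and below 1 for 4, where the shares over all genes were 29.0% and 23.5%. Lamtor4, of the Ragulator scaffold, was at 46.1 and 70.4 FPKM (log2 ratio 0.60) and Sesn3, of the sestrins, at 21 and 15.5 FPKM (log2 ratio -0.42), the extremes of that list.

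The Slc25 family of the inner mitochondrial membrane had the most members, 38, and the highest summed level, 842 FPKM in healthy and 1087 in leukemia. Its median log2 ratio was 0.10, with 1 member at 2-fold (Slc25a13) and 12 intervals above 1 against 5 below. The shares over all genes were 29.0% above and 23.5% below, so this count is not read as a result about the family. Slc25a5 and Slc25a4, which export ATP in exchange for ADP, were at 209 and 314 FPKM (1.51, 1.43 to 1.59) and at 61.1 and 88.3 FPKM (1.45, 1.30 to 1.61). The phosphate carrier Slc25a3, which supplies ATP synthase, was at 176 and 240.2 FPKM (1.37, 1.30 to 1.45). These 3 carriers serve ATP synthesis and had log2 ratios of 0.59, 0.52 and 0.44. Reads of the 2 nucleotide exchangers, which are close paralogues, summed to 2899 and 4315, a ratio of 1.49 (1.42 to 1.57).

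Several carriers that exchange metabolites with the cytosol also had intervals above 1. Slc25a1, which exports citrate for fatty acid synthesis, was at 15.8 and 25.1 FPKM (1.59, 1.35 to 1.87). Slc25a11, the oxoglutarate carrier that works with citrin in the malate-aspartate shuttle, was at 41.8 and 50.1 FPKM (1.20, 1.08 to 1.33). Slc25a12 (aralar) is the other aspartate-glutamate carrier and was at 22.9 and 29.5 FPKM (1.27, 1.14 to 1.42), above Slc25a13 in both libraries. The dicarboxylate carrier Slc25a10 was at 1.94 and 4.75 FPKM (2.45, 1.85 to 3.29) and Slc25a39, needed for glutathione import, at 28.8 and 47.7 FPKM (1.61, 1.42 to 1.83). Slc25a12, Slc25a10 and Slc25a39 are named after their values were seen.

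Other Slc25 carriers lay on both sides of 1. Slc25a20, which imports acylcarnitines for fatty acid oxidation, was at 17 and 14.2 FPKM (0.833, 0.695 to 0.998). The iron importer Slc25a37 (mitoferrin 1) was at 9.10 and 11.2 FPKM (1.20, 1.04 to 1.39), and Slc25a38, the glycine carrier of heme synthesis, at 12.3 and 13.3 FPKM with an interval that held 1. Both are used by erythroid cells, whose 9 markers at 1 FPKM or more had 1 at least 2-fold higher, 2 intervals above 1 and 3 below. The red cell anion exchanger Slc4a1 was no member and had 4 and 23 reads. The lowest log2 ratios of the family, named after they were seen, were those of the coenzyme A carrier Slc25a42, at 5.04 and 2.99 FPKM (log2 ratio -0.60), and of Slc25a27, at 4.76 and 2.96 FPKM (log2 ratio -0.54).

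**Figure D4:**
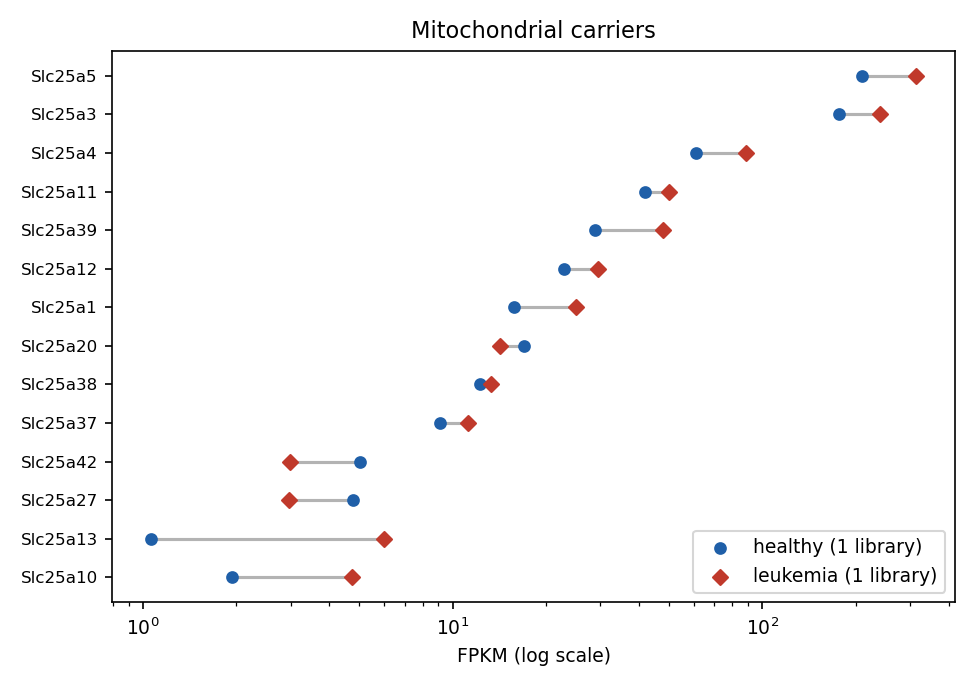
FPKM (x axis, log scale) of the 14 Slc25 members named in the text, of 38 (y axis, ordered by level), in the healthy and leukemia library, 1 symbol each. The 5 most abundant, from Slc25a5 to Slc25a39, lie higher in leukemia, and Slc25a13 shows the widest gap.

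Mitochondrial carriers and channels outside the Slc symbols were measured beside them. Of 20 such genes none was at 2-fold, and the median log2 ratio was 0.27. Intervals lay above 1 for 12 and below 1 for 1, where the shares over all genes were 29.0% and 23.5%. Nothing is read from this count. The extremes were Smdt1 at 54.8 and 93.4 FPKM (log2 ratio 0.76) and Sfxn4 at 2.77 and 1.62 FPKM (log2 ratio -0.52, with an interval that held 1). As examples, Vdac1, a channel of the outer membrane, was at 45 and 70.1 FPKM (log2 ratio 0.63). Mpc1, a subunit of the pyruvate carrier, was at 28.3 and 40.7 FPKM (log2 ratio 0.51).

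Nucleoside, nucleobase and nucleotide sugar carriers numbered 29, with a median log2 ratio of 0.07, 1 member at 2-fold (Slc43a3), and 9 intervals above 1 against 8 below. The concentrative purine nucleoside carrier Slc28a2 was at 60.2 and 47.5 FPKM (0.754, 0.699 to 0.812) and its copy Slc28a2b at 22.5 and 12.6 FPKM (0.558, 0.485 to 0.640). The estimation of reads had to share fragments between these copies. Their coding sequences in GENCODE M21 were 1980 bases each and 94.5% identical, with 108 differing bases and a longest identical run of 192, so the split between them is uncertain. Their sum was 82.8 and 60.1 FPKM, a read ratio of 0.702 (0.657 to 0.75). The first 150 coding bases are shown because 12 of the differing bases lie in them, set in capitals.
Slc28a2, first coding bases: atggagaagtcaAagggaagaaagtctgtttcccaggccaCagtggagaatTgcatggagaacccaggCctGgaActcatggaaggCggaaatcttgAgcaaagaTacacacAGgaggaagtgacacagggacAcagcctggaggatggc
Slc28a2b, first coding bases: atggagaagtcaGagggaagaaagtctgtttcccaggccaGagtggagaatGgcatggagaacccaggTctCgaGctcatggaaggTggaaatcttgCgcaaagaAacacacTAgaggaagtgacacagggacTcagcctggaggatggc

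The equilibrative carrier Slc29a1 (ENT1), which also moves adenosine, was at 26.1 and 28.7 FPKM, and the lysosomal Slc29a3 (ENT3) at 6.55 and 6.98 FPKM. Both intervals held 1 (0.976 to 1.25 and 0.911 to 1.26). Slc17a9, which loads ATP into vesicles for release, was at 28.3 and 21.4 FPKM (0.756, 0.663 to 0.862) and is named after its value was seen. So the concentrative carriers and the vesicular ATP carrier were lower on the deposited scale, and the equilibrative ones did not differ beyond counting error.

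The Slc35 family brings activated sugars into the Golgi and endoplasmic reticulum for glycosylation. It had 21 members, 7 with intervals above 1 and 5 below. Slc35c1, the GDP-fucose carrier needed for selectin ligands, was at 28.4 and 35.5 FPKM (1.25, 1.13 to 1.38), and Slc35a4 at 21.9 and 32.1 FPKM (1.46, 1.31 to 1.64). Slc35b2, which brings in the sulfate donor PAPS, was at 15.2 and 20.4 FPKM (1.33, 1.13 to 1.56). Slc35c2 had the highest log2 ratio of the family at 16.5 and 32.6 FPKM (log2 ratio 0.94, read ratio 2.03, 1.76 to 2.36), and Slc35d1 the lowest at 10.2 and 6.49 FPKM (log2 ratio -0.58). The last 3 are named after their values were seen.

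Metal carriers numbered 23, none at 2-fold, with a median log2 ratio of -0.07 (0.44 when centred) and 5 intervals above 1 against 4 below. The 2 zinc families work in opposite directions, Slc39 bringing zinc into the cytosol and Slc30 taking it out. Of 12 Slc39 members 3 had intervals above 1 and none below, and of 6 Slc30 members 1 lay above and 3 below. The shares over all genes were 29.0% above and 23.5% below, and nothing is read from counts over so few members. Slc39a7, which releases zinc from the endoplasmic reticulum, was the most abundant at 55.5 and 61.6 FPKM (1.10, 1.02 to 1.19), and Slc39a6 was at 9.39 and 13.2 FPKM (1.41, 1.22 to 1.63). Slc39a1 (22.9 and 23.4 FPKM), Slc39a10 (5.06 and 4.21) and Slc39a14 (3.51 and 3.09) had intervals that held 1.

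Slc30a1, the zinc exporter of the plasma membrane, was at 5.14 and 3.80 FPKM (0.735, 0.600 to 0.898). Slc30a5, which loads zinc into the secretory pathway, was at 17.6 and 26.9 FPKM (1.53, 1.36 to 1.71), and Slc30a9 at 12.2 and 12.4 FPKM with an interval that held 1. The copper importer Slc31a1 (CTR1), named after its value was seen, had the highest log2 ratio of the metal group, 0.91, at 2.95 and 6.44 FPKM on 100 and 218 reads (2.19, 1.72 to 2.80).

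Inorganic ion and pH carriers numbered 26, with a median log2 ratio of -0.01, Slc4a8 and Slc26a10 past 2-fold in opposite directions, and 4 intervals above 1 against 7 below. The potassium-chloride cotransporter Slc12a7 (KCC4), which lets swollen cells shrink, was at 29 and 19.2 FPKM (0.660, 0.606 to 0.718). The sodium-potassium-chloride cotransporter Slc12a2 (NKCC1), which moves ions the other way, was at 6.27 and 3.35 FPKM (0.534, 0.447 to 0.636). Both were lower on the deposited scale, with log2 ratios of -0.57 and -0.74, and both stayed below 0 when centred on T cell markers. The sodium-bicarbonate cotransporter Slc4a7, a relative of Slc4a8 named after its value was seen, was at 8.81 and 5.88 FPKM (0.670, 0.588 to 0.762).

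The phosphate carriers Slc20a1 (50.0 and 45.6 FPKM) and Slc20a2 (3.86 and 4.64) had intervals that held 1, as had the anion exchanger Slc4a2 (14.7 and 14.5) and the calcium exchanger Slc24a3 (1.26 and 1.42). Slc8b1, the mitochondrial sodium-calcium exchanger, was at 7.24 and 10.1 FPKM (1.45, 1.20 to 1.77) and is named after its value was seen.

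Lipid, choline and bile acid families had 7 members with a median log2 ratio of -0.17 (0.34 when centred). Slc44a2 was at 122 and 107 FPKM on 3826 and 3356 reads (0.880, 0.840 to 0.922). Slc10a7 (17.8 and 15.7 FPKM), Slc10a3 (8.11 and 6.48) and the choline carrier Slc44a1 (6.58 and 5.50) had intervals that held 1. The fatty acid transport protein Slc27a1, named after its value was seen, was at 2.76 and 4.06 FPKM and had the 1 interval above 1 (1.58, 1.18 to 2.14).

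Vitamin and heme families had 10 members, none at 2-fold, with a median log2 ratio of -0.01. The reduced folate carrier Slc19a1 was at 6.13 and 8.43 FPKM (1.36, 1.08 to 1.71) and Slc49a4 at 5.06 and 8.80 FPKM (1.74, 1.46 to 2.08), the 2 intervals above 1. The ascorbate carriers Slc23a1 and Slc23a2 were at 9.49 and 8.88 FPKM (an interval that held 1) and 6.70 and 4.70 FPKM (0.705, 0.602 to 0.825), the latter named after its value was seen. The riboflavin carrier Slc52a2 (8.80 and 9.56 FPKM) and the proton-coupled folate carrier Slc46a1 (1.35 and 1.30) had intervals that held 1.

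Other organic solutes had 11 members, with a median log2 ratio of -0.04. The urea carrier Slc14a1, known from red cells and kidney, was the most abundant at 18.4 and 16.7 FPKM on 601 and 547 reads, with an interval that held 1. Slc17a5 (sialin), which exports sialic acid from lysosomes, was at 4.08 and 4.90 FPKM and Slc18b1 at 4.14 and 4.39 FPKM, and both intervals held 1. Slc66a2, a PQ-loop family member of unestablished substrate that is named after its value was seen, was at 2.95 and 5.22 FPKM (1.92, 1.34 to 2.79).

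The 7 members that are no carriers were led by Slc9a3r1 (EBP50), a scaffold that links membrane proteins to ezrin, at 172 and 144 FPKM (0.839, 0.795 to 0.886). The pseudogene Slc2a4rg-ps was at 31.9 and 23.4 FPKM (0.734, 0.661 to 0.815). Slc7a6os (29.3 and 27.5 FPKM) and Slc4a1ap (12.7 and 13.4) had intervals that held 1.

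By a limit chosen after the values were seen, 15 members had the whole read-ratio interval above 1.5 and 6 had it below 0.667. The shares over all genes were 8.44% and 2.53%. Besides genes given above, the higher ones included Slc35e4 (19 and 55 reads, 2.91, 1.70 to 5.18), Slc16a13 (20 and 55 reads, 2.76, 1.63 to 4.86) and the sodium-proton exchanger Slc9a5 (18 and 49 reads, 2.73, 1.56 to 4.98). These 3, like Slc2a6, Slc2a5 and Slc22a4 among the 15, were under 1 FPKM in healthy and became members through the leukemia library. The 6 lower ones were Slc28a2b, Slc12a2, Slc25a27, Slc26a10, Slc1a3 and Slc16a9. Of these, Slc1a3 was under 1 FPKM in leukemia and became a member through the healthy library.

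**Figure D5:**
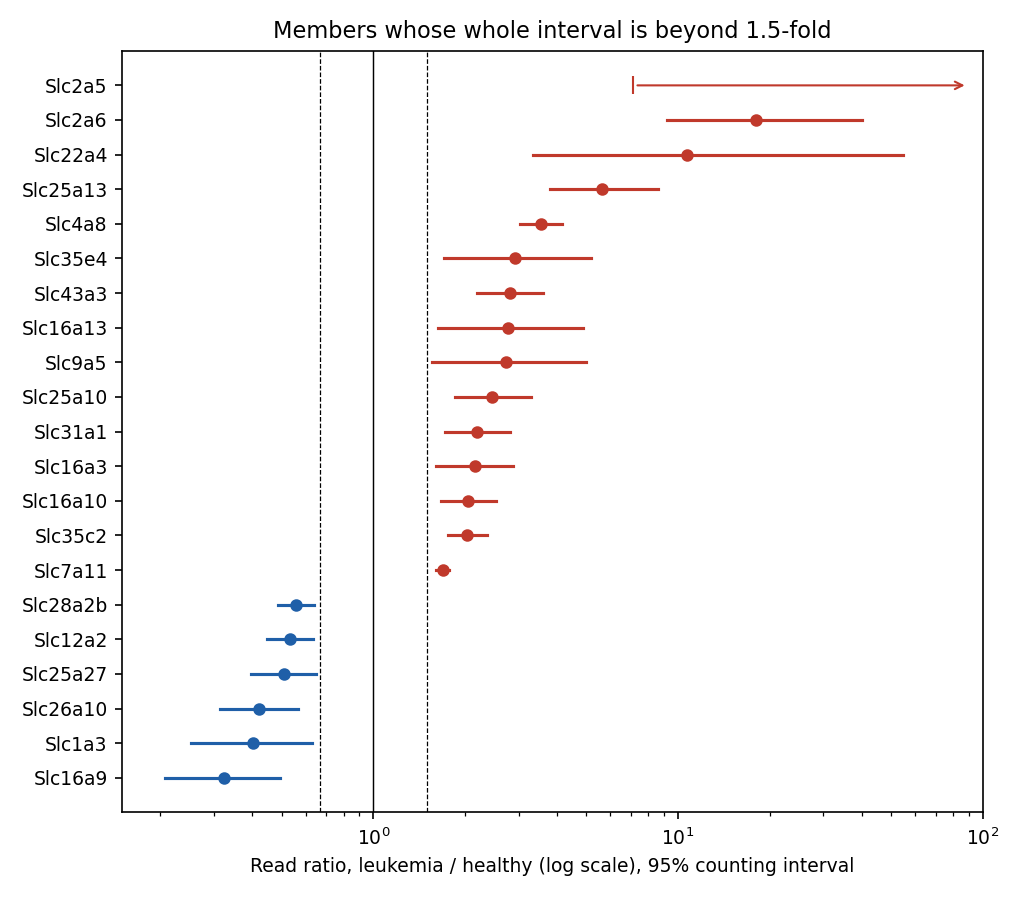
Read ratio, leukemia over healthy (x axis, log scale), with exact 95% counting intervals, for the 21 members whose whole interval lies beyond 1.5-fold (dashed lines); the arrow marks Slc2a5, with 0 healthy reads and an interval from 7.13 upward. Slc7a11 has the narrowest of the 15 higher intervals, 1.61 to 1.77, and Slc22a4 spans 3.35 to 54.6.

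Transporters with other symbols were counted by the same rule. The shares over all genes were 6.55% higher and 1.95% lower at 2-fold, and 29.0% of intervals above 1 and 23.5% below. Of 28 ABC transporters, which use ATP to move their cargo, none was at 2-fold, 9 had intervals above 1 and 10 below, and the median log2 ratio was -0.02. The extremes were Abcb1b, a multidrug efflux pump, at 4.43 and 9.49 FPKM (log2 ratio 0.95) and Abcg3 at 27.8 and 14.7 FPKM (log2 ratio -0.87). Of 29 plasma membrane and lysosomal carriers 2 were higher and none lower, Spns3 at 0.31 and 6.95 FPKM (log2 ratio 2.60) and Mfsd10 at 12.5 and 27.9 FPKM (log2 ratio 1.10). Of 20 chaperones and trafficking factors 1 was higher, Unc93b1, which escorts Toll-like receptors, at 28.7 and 63.3 FPKM (log2 ratio 1.11). Txnip, which lowers glucose uptake, was at 212 and 183 FPKM (log2 ratio -0.21), and Sgk1, a kinase that raises carrier surface levels, at 19 and 12.2 FPKM (log2 ratio -0.59), the lowest of that list.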

How the data were processed

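Libraries of sorted splenic Treg cells, 1 from healthy and 1 from leukemia mice, were grouped by disease state in the labels. Bowtie2 (2.2.5) and RSEM are named in the submitters' processing notes; no source used here gives the RSEM version, genome build, annotation or strand setting. The authors deposited, per the file headers, an expected count per gene (RSEM's estimate of its reads), an FPKM value and a transcript length.

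Genes were named through the RefSeq gene table. A gene absent from a table counted as 0. Estimated counts were rounded for exact binomial (Clopper-Pearson) intervals at 95% (Python 3.11.15, SciPy 1.17.1). Counts simulated with counting error alone, as the intervals assume, could check the calculation but not whether that assumption holds for these libraries. The intervals and the floor of 3 reads cover counting error only. With 100 reads in each library the interval spans 0.753 to 1.34. The pseudocount was 1 FPKM, and it was 1 in the unit of the scaling for TPM and for CPM with TMM.

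The members, gene lists and substrate groups were chosen with earlier results of these data known. Members named are those past 2-fold, the 4 most abundant of each substrate group, a fixed set of lymphocyte carriers and those at the 1 FPKM limit. Other members are marked as named after their values were seen. Genes named from the other lists were picked outside this rule, as extremes or examples. Substrate groups follow family numbers with single exceptions, such as Slc43a3. Alternatives were a pseudocount of 0.1 FPKM, TPM, median ratio scaling, CPM with TMM (edgeR 4.0.16), centring on T cell and Treg markers, other filters, a condition on the interval and, added after seeing the data, leaving out members that are no carrier. Some genes that the naming rule takes are not reported here.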

Additional observations from a re-analysis of the deposited data

How the results depend on the processing

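On the deposited scale 8 members were at least 2-fold higher and 1 lower. A pseudocount of 0.1 FPKM gave 14 higher and 3 lower, TPM gave 2 lower, and CPM with TMM scaling gave 3 lower and 11 higher, of which 6 were among the 8. A filter of 5 FPKM left 4 higher. Centring on T cell and Treg markers gave 28 higher, all 8 included, and 0 lower, with a median of 0.53 over the members, since it adds 0.51 to every gene. The group medians then were 0.55 for amino acids and peptides, 0.96 for carboxylates, 0.49 for inorganic ions, 0.34 for lipids and choline, 0.44 for metals, 0.61 for mitochondrial carriers, 0.58 for nucleosides and nucleotide sugars, 0.47 for other organic solutes, 0.34 for sugars, 0.50 for vitamins and heme and 0.49 for members that are no carrier. With no filter, which brings in genes under 1 FPKM, medians were 0.22 for carboxylates, -0.00 for lipids and choline and 0.03 for sugars. The other 81 counts and medians stayed within 1.5 times or 0.1. Of the log2 ratios of single genes under the alternatives, 462 lay within the gene's read-ratio interval and 113 did not. For some genes, such as Slc2a6, the pseudocount puts the log2 ratio on the deposited scale outside that interval already. So these 2 counts do not measure dependence on the processing. No gene past 2-fold changed sign. No paired analysis was possible because each group holds 1 library, so none could be left out either. With 10 reads in each library the read-ratio interval spans 0.375 to 2.69, so for members with so few reads smaller differences were not detectable at this depth.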
